A study of Homo sapiens with 2 samples.

Results

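The FOXO transcription factors are held in the cytoplasm when Akt phosphorylates them, and their target genes in stress defence, growth restraint and protein breakdown were followed here in CWR22rv1 cells, a human prostate cancer line, with and without Akt1 and Akt2. The genes described are SESN1, SESN3, TXNIP, GADD45A, FBXO32, CITED2, BNIP3, SOD2, CAT and KLF6, taken by symbol, and all 10 are among the 19607 genes of the deposited table. RNA was sequenced from 1 library labelled Akt1/2 knockout (Akt1/2 DKO) and 1 library labelled wild type (control). The knockout was made with CRISPR/Cas9 guides against both genes, followed by puromycin selection and isolation of single clones, and the line is grown in RPMI medium with 10% FBS. The labels do not say which clone was sequenced, or whether the control cells had passed through selection and cloning, so an effect of the knockout cannot be told apart from a difference between a clone and its parent line. No library has a replicate, and every interval given below covers counting error only.

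In the absence of Akt signalling, FOXO proteins enter the nucleus and bind a short core motif in the promoters of their targets. Classical targets include enzymes that detoxify superoxide and hydrogen peroxide, sestrins that restrain the growth kinase mTORC1, proteins that halt the cell cycle after DNA damage, and, in wasting muscle, a ubiquitin ligase and mitophagy receptors that drive loss of protein and mitochondria. Most of these genes also answer to other factors, among them p53, HIF-1, NF-kB and the glucose-sensing MondoA complex.

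The library labelled Akt1/2 DKO was checked by the targeted genes. Fold changes are ratios of reads after TMM normalisation for library size, with exact Clopper-Pearson counting intervals. AKT1 had 2645 control reads and 591 Akt1/2 DKO reads, and AKT2 had 2362 and 667. Both transcripts were therefore lower but still present, at log2 fold changes of -2.31 (95% interval -2.44 to -2.18) and -1.97 (-2.10 to -1.85). In FPKM, AKT1 went from 120.87 to 19.19 and AKT2 from 79.11 to 19.25. For its clones the paper reports the knockout by sequencing and by Western blot of both proteins, which RNA reads do not measure. Total reads were 9970815 in the control and 10718634 in the Akt1/2 DKO library. Of 8 prostate luminal markers, all 8 were detected in both libraries, with a summed level of 896 FPKM (fragments scaled for transcript length and sequencing depth) in the control and 1483 FPKM in the Akt1/2 DKO library, and 3 of them were higher and 3 lower by 1.5-fold. Of 4 basal markers, TP63 and KRT5 were at 0 in both, while KRT15 had 13 and 0 reads and KRT14 had 2 and 0. The 4 endothelial markers held 2 reads in each library, 5 leukocyte markers held 56 and 80 reads, and 6 skeletal muscle markers held 3 reads in each. The 8 fibroblast markers held 1043 reads in the control and 252 in the Akt1/2 DKO library, of which VIM made up 897 and 84. By gene the fibroblast list was mixed, with VIM and COL3A1 (74 and 9 reads) lower and COL1A1 (55 and 106), LUM (5 and 35) and CAV1 (6 and 12) higher by 1.5-fold. The part of these markers in the results was not tested. The 7 mitochondrial transcripts checked held 443618 and 402557 reads, and none of them differed by 1.5-fold.

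Promoter sequences are shown for KLF6, CAT, CITED2 and TXNIP, because these 4 genes were lower together in the Akt1/2 DKO library. RefSeq promoter windows (GRCh38.p14, 250 bases before to 50 after each annotated start) were found for 8 of the 10 genes, all but GADD45A and FBXO32. Each sequence below reads 5′ to 3′ on the strand of the gene, starts 250 bases before the first start listed for it, and stops where the first exon annotated in GENCODE begins. This left out the last 72 bases before the listed start for KLF6, 9 for CAT and 21 for TXNIP. Motif positions are counted from the listed start, not from the end of the printed stretch. Capitals mark the forkhead core GTAAACA or the E-box CACGTG, searched on both strands. The windows are chr10:3785282-3785459 (minus strand) for KLF6, chr11:34438684-34438924 (plus strand) for CAT, chr6:139374649-139374898 (minus strand) for CITED2 and chr1:145996601-145996829 (minus strand) for TXNIP.
KLF6: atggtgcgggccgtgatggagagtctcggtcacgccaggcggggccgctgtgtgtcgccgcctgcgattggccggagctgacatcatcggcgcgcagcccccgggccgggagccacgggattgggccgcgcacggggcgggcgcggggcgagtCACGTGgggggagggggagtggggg
CAT: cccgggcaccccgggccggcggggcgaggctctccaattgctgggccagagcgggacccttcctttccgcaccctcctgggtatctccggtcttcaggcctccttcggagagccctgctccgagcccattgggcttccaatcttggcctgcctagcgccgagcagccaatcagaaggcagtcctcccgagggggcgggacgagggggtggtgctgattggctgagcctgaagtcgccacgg
CITED2: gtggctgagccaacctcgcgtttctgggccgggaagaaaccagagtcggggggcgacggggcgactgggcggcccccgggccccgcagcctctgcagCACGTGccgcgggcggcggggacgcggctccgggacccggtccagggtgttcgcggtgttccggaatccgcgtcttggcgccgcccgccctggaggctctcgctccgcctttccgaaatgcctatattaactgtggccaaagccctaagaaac
TXNIP: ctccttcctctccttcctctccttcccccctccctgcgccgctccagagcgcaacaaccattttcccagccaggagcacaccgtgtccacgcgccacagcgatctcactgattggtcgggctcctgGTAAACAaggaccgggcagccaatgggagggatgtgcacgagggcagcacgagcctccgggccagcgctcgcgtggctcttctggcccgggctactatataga
The forkhead core was found in 1 of the 8 genes, TXNIP, on the strand of the gene, at positions -124 to -118 from the start. It occurs in 3.42% of all 35116 windows, and in 4.19% of the genes that have a window. The second forkhead core searched, CAAAACA, was in 0 of the 8 genes and in 6.05% of all genes. The palindromic E-box CACGTG was in 3 of the 8 genes, CITED2, BNIP3 and KLF6, against 8.77% of all genes, and lay at positions -97 to -92 from the start of KLF6 and -153 to -148 from that of CITED2. Its shorter form ACGTG, the core of the hypoxia response element, which every CACGTG contains, was in 4 of the 8 genes and in 24.9% of all genes, the additional gene being TXNIP in its other listed window. The 8 genes have 16 windows, more per gene than the table as a whole, and by window ACGTG was in 4 of 16 beside 21.4% of all windows, CACGTG in 3 of 16 beside 7.26%, and GTAAACA in 1 of 16 beside 3.42%. G and C made up 76.4% of the printed stretch of KLF6, 68.5% of CAT, 70% of CITED2 and 63.8% of TXNIP. The median over all windows was 58% in the 250 bases before the start. The part of base composition in the motif shares was not tested. The window of CAT held none of the 4 motifs, which says only that these letters are not in it.

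Of the 10 FOXO targets, 1 was higher and 4 were lower in the Akt1/2 DKO library by at least 1.5-fold, the limit the study used, and 5 stayed within it. KLF6 (3.71-fold), CAT (2.91-fold), CITED2 (1.74-fold) and TXNIP (1.63-fold) were the lower genes, and FBXO32 (2.33-fold) was the higher gene. All 10 genes had at least 100 reads in both libraries together. As background, 13318 genes had a sum of 10 or more reads over both libraries, and 30.9% of them passed this limit, 15% being lower and 15.9% higher. For the 10956 genes whose sum reached 100 reads, the shares were 23.2%, 11.9% and 11.3%. The share of targets that were lower, 4 of 10, lay above these backgrounds, while 1 of 10 higher did not. No test was made with 1 library per condition. The 10 genes were chosen with earlier results of these data known, so these shares are not independent evidence of a direction. The median log2 fold change of the targets was -0.35, beside 0.0063 over all 13318 genes. In bulk RNA, fewer cells that express a gene and less of its RNA in each cell cannot be told apart.

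**Figure D1:**
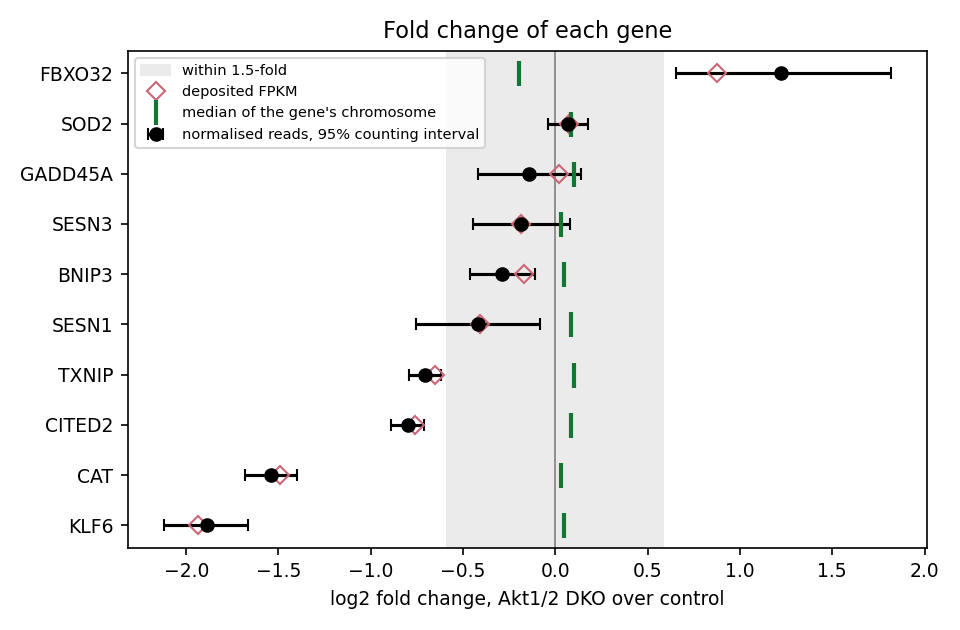
Log2 fold change of the 10 FOXO targets, Akt1/2 DKO over control, from normalised reads (black points with 95% counting intervals), from the deposited FPKM (open diamonds) and, as a green bar, the median log2 fold change of each gene's chromosome. KLF6 at -1.89 and CAT at -1.54 lie farthest below 0, CITED2 and TXNIP lie just outside the grey band of 1.5-fold, and FBXO32 at 1.22 is the gene above the band.

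The hydrogen peroxide and superoxide enzymes differed from each other. CAT (ENSG00000121691, chromosome 11 from 34438925 to 34472062) encodes catalase, which breaks down hydrogen peroxide in peroxisomes, and had 1519 control reads and 579 Akt1/2 DKO reads, or 65.72 and 23.3 FPKM. It was 2.91-fold lower (95% interval 2.64 to 3.21) in Akt1/2 DKO cells, and 4.82% of all tested genes had a lower log2 fold change. SOD2 (ENSG00000112096, chromosome 6 from 159669057 to 159745186), the manganese superoxide dismutase of the mitochondrial matrix, had 1306.37 and 1515.83 estimated reads and 69.83 and 73.5 FPKM. Its log2 fold change was 0.066, with an interval from -0.041 to 0.17 that includes 0, so no difference was detectable, and a difference of 1.5-fold lies outside the interval. SOD2 is the one target whose estimated reads are not whole numbers. In GENCODE release 29 its exons share 845 bases with a second gene record also named SOD2 and 298 bases with WTAP on the opposite strand, so the value is uncertain to that extent.

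Catalase and SOD2 were set beside a list of 21 other genes of peroxide and superoxide defence, 20 of which had at least 10 reads. By 1.5-fold, 4 of these were higher and 3 lower (35%, beside 30.9% of all genes and 23.2% of those with at least 100 reads). Another 13 stayed within it, and the median was -0.028 (log2). PRDX3, the mitochondrial peroxiredoxin and itself a known FOXO target, had 2290 control reads and 4588 Akt1/2 DKO reads, 1.81-fold higher (95% interval 1.72 to 1.90). GPX1, a cytosolic glutathione peroxidase, had 2063 and 1372 reads, 1.67-fold lower (1.56 to 1.79), and lies on chromosome 3, where the median over genes was -0.54 on the log2 scale. GPX8 had 30 and 124 reads (3.73-fold higher, 2.49 to 5.76), and CCS, the copper chaperone of SOD1, had 109 and 186 (1.54-fold higher, 1.21 to 1.97). GPX3, GPX7 and SOD3, which hold under 100 reads and are given after their values were seen, had 49 and 2, 77 and 10, and 1 and 17 reads. SOD1, the cytosolic dismutase, had 2181 and 2248 reads, a log2 fold change of -0.11 (-0.19 to -0.020).

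TXNIP (ENSG00000265972, chromosome 1 from 145992435 to 145996600), an arrestin-like protein that binds thioredoxin and lowers glucose uptake, had 2618 control reads and 1780 Akt1/2 DKO reads, or 92.01 and 58.59 FPKM. It was 1.63-fold lower (95% interval 1.53 to 1.73), the smallest of the 4 differences that passed 1.5-fold. Its promoter is the window with the forkhead core shown above. The thioredoxin genes TXN and TXN2 had log2 fold changes of 0.069 and -0.36, and both stayed within 1.5-fold.

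Among the arrestin-domain paralogs of TXNIP, ARRDC4 was the one that passed the limit. ARRDC4, which like TXNIP is known to be induced by MondoA when glucose is plentiful, had 404 control reads and 246 Akt1/2 DKO reads, 1.82-fold lower (95% interval 1.55 to 2.14). ARRDC1, ARRDC2 and ARRDC3 had log2 fold changes of 0.15, 0.24 and 0.22, and ARRDC5 had no reads. The genes of the MondoA complex, MLXIP and MLX, had 1369 and 1827 reads and 945 and 1154 reads in the control and Akt1/2 DKO library. Their log2 fold changes were 0.27 and 0.14, while MLXIPL, which encodes the related factor ChREBP, had 47 and 83 reads and was 1.59-fold higher (1.10 to 2.33).

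**Figure D2:**
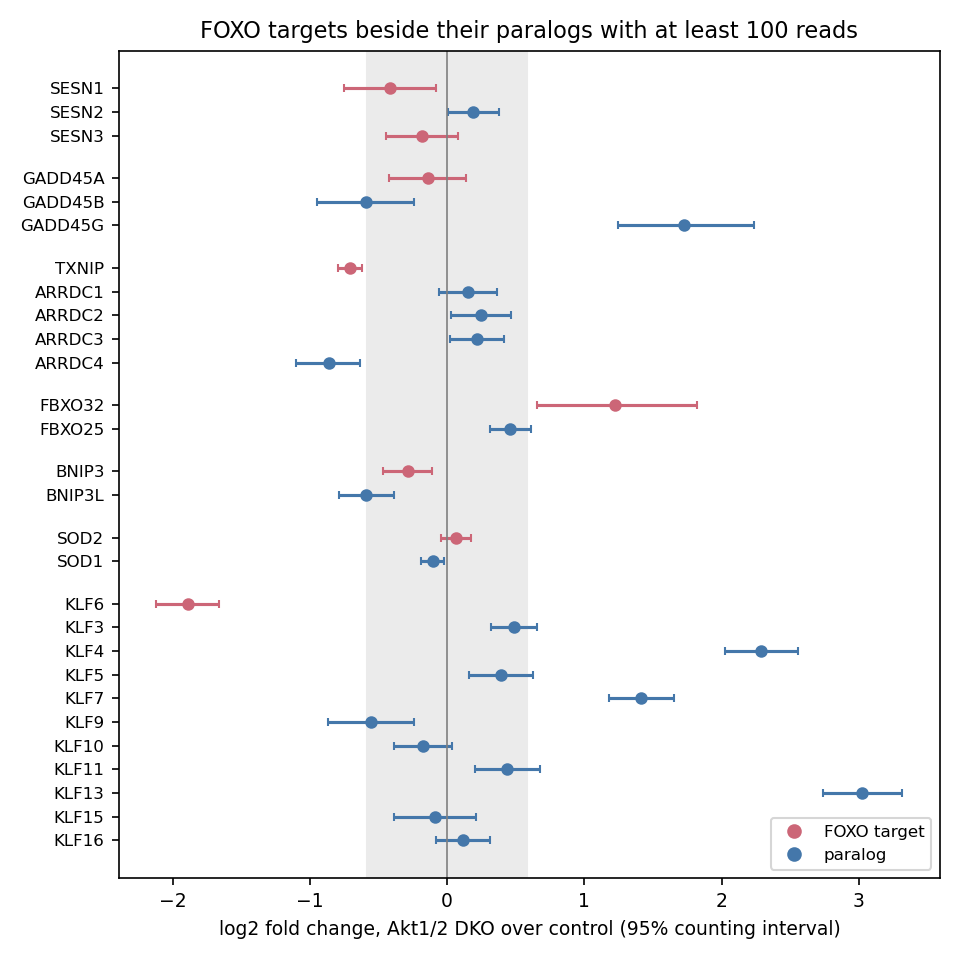
Log2 fold change, Akt1/2 DKO over control, with 95% counting intervals, of FOXO targets (red) and their paralogs with at least 100 reads (blue), grouped by family, with the grey band marking 1.5-fold. TXNIP and ARRDC4 lie together below the band, GADD45G lies above it while GADD45A is inside, and KLF6 at -1.89 lies on the side opposite to KLF4 at 2.29 and KLF13 at 3.02.

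The sestrins bind the GATOR2 complex and hold back mTORC1 when leucine is scarce, and they also limit oxidative damage. SESN1 (ENSG00000080546, chromosome 6 from 108986437 to 109094819) had 165 control reads and 137 Akt1/2 DKO reads, or 5.9 and 4.42 FPKM. Its log2 fold change of -0.42 had a counting interval from -0.75 to -0.081, which excludes 0 and reaches past 1.5-fold. SESN3 (ENSG00000149212, chromosome 11 from 95165513 to 95232541), the sestrin most often described as a FOXO target, had 249 and 243 reads, or 2.81 and 2.46 FPKM. Its log2 fold change was -0.18 (-0.44 to 0.077), so that no difference was detectable at this depth. SESN2, the paralog better known for induction by amino acid stress and p53, had 438 and 554 reads, a log2 fold change of 0.19 (0.0067 to 0.37). All 3 sestrins thus stayed within 1.5-fold. Both SESN1 and SESN3 share exon bases with an antisense RNA gene in GENCODE (363 and 93 bases), and since the library's strandedness is not given in the sources used here, reads of the 2 strands cannot be told apart.

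Genes listed as partners of some of the target proteins, or as acting on them, mostly had similar RNA levels in the libraries. Of 31 such genes, 30 had at least 10 reads, and 26 of these stayed within 1.5-fold. Another 3 were higher and 1 was lower, with a median log2 fold change of 0.023. The share past the limit was 13.3%, beside 30.9% of all genes and 23.2% of those with at least 100 reads. The GATOR2 genes through which sestrins act, WDR24, WDR59, MIOS, SEH1L and SEC13, had log2 fold changes of 0.13, -0.023, -0.21, -0.18 and -0.21. PRKAA2, a catalytic subunit of AMPK, had 32 and 218 reads, 6.14-fold higher in the Akt1/2 DKO library (95% interval 4.23 to 9.21). BCL2, which binds BNIP3, had 110 and 239 reads (1.96-fold higher, 1.56 to 2.48). SQSTM1, an autophagy receptor that binds sestrins, had 1909 and 1358 reads and was 1.56-fold lower (1.45 to 1.67).

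Genes of growth restraint ranged from no detectable difference to the largest one. GADD45A (ENSG00000116717, chromosome 1 from 67685061 to 67688338), which binds PCNA and slows the G2 to M transition after DNA damage, had 215 control reads and 216 Akt1/2 DKO reads, or 14.31 and 14.49 FPKM. After normalisation for library size its log2 fold change was -0.14 (95% interval -0.42 to 0.14), and with the deposited FPKM it was 0.018, so its direction depends on the scale. Its paralog GADD45G had 45 and 165 reads and was 3.31-fold higher (2.37 to 4.71). GADD45B had 162 and 119 reads, 1.51-fold lower, close to the limit itself, with an interval from 1.18 to 1.93.

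CITED2 (ENSG00000164442, chromosome 6 from 139371807 to 139374620) encodes a protein that competes with HIF-1α for the coactivators CBP and p300. It had 2706 control reads and 1723 Akt1/2 DKO reads, or 146.92 and 86.77 FPKM. The gene was 1.74-fold lower (95% interval 1.64 to 1.85) in Akt1/2 DKO cells, and even so it had the highest FPKM of the 10 targets in both libraries. Its partners EP300 and CREBBP, which encode p300 and CBP, had log2 fold changes of 0.051 and 0.070. The paralogs CITED1 and CITED4 had at most 10 reads in either library.

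KLF6 (ENSG00000067082, chromosome 10 from 3775996 to 3785281), a zinc finger factor of the Krüppel-like family described as a tumour suppressor in prostate cancer, had 702 control reads and 210 Akt1/2 DKO reads, or 16.99 and 4.37 FPKM. This was the largest difference among the 10 targets, 3.71-fold lower (95% interval 3.17 to 4.34), and 3.6% of all tested genes had a lower log2 fold change. Of the other KLF genes with at least 100 reads, those that passed 1.5-fold did so in the opposite direction. KLF13 had 112 and 1009 reads (8.13-fold higher, 6.68 to 9.97), KLF4 had 141 and 763 (4.88-fold higher, 4.07 to 5.88) and KLF7 had 196 and 579 (2.66-fold higher, 2.26 to 3.15). KLF3, KLF5, KLF9, KLF10, KLF11, KLF15 and KLF16 each had at least 100 reads in both libraries together and stayed within 1.5-fold, with log2 fold changes from -0.55 for KLF9 to 0.48 for KLF3. Below that depth, KLF8 had 14 and 0 reads and KLF12 had 0 and 48. Over the whole list of 30 paralogs of the targets, 25 had at least 10 reads. By 1.5-fold, 7 of them were higher and 4 lower (44%, beside 30.9% of all genes and 23.2% of those with at least 100 reads). The median log2 fold change was 0.22. This split depended on the scale, with 2 lower instead of 4 under total count or upper-quartile scaling, and 8 higher and 3 lower by FPKM.

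The protein breakdown genes gave the target that was higher in Akt1/2 DKO cells. FBXO32 (ENSG00000156804, chromosome 8 from 123497889 to 123541206), or atrogin-1, is the substrate receptor of an SCF ubiquitin ligase and the best-known FOXO target in wasting muscle. It had 36 control reads and 93 Akt1/2 DKO reads, or 1.4 and 2.65 FPKM. FBXO32 was 2.33-fold higher by normalised reads (95% interval 1.57 to 3.53) and 1.83-fold higher by the deposited FPKM, and 91.6% of all tested genes had a lower log2 fold change. The length implied by its reads and FPKM was 2.58 kb in the control and 3.27 kb in the Akt1/2 DKO library, a ratio of 1.27, while for the other 9 targets this ratio lay between 0.923 and 1.08. Even at its higher level, FBXO32 remained among the least abundant of the 10 genes.

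BNIP3 (ENSG00000176171, chromosome 10 from 131966455 to 131982013) encodes a mitochondrial outer membrane receptor for mitophagy that is induced by hypoxia and by FOXO3 in muscle. It had 549 control reads and 499 Akt1/2 DKO reads, or 34.22 and 30.41 FPKM, a log2 fold change of -0.29 (95% interval -0.46 to -0.11), within 1.5-fold. Its paralog BNIP3L had 484 and 357 reads, a log2 fold change of -0.59 (-0.79 to -0.39), at the limit itself. In a list of 19 other genes of atrophy and protein breakdown, 18 had at least 10 reads, and 0 of these were higher and 2 lower by at least 1.5-fold, with a median log2 fold change of 0.13. This split depended on the scale, being 1 higher and 1 lower with total count or upper-quartile scaling and 2 higher and 2 lower by FPKM. With TMM the share past the limit was 11.1%, beside 30.9% of all genes and 23.2% of those with at least 100 reads. The lower genes were BNIP3L and NEDD4, a ubiquitin ligase with 266 and 179 reads (1.65-fold lower, 1.36 to 2.00). TRIM63, or MuRF1, the ligase usually named together with FBXO32, had 3 and 1 reads. FBXO30, another ligase of the muscle programme, had 243 and 399 reads, a log2 fold change of 0.57 (0.33 to 0.80) within 1.5-fold. FBXO25, the closest paralog of FBXO32, had 611 and 932 reads, a log2 fold change of 0.46 (0.31 to 0.61). The core SCF genes CUL1, SKP1 and RBX1 had log2 fold changes of -0.038, -0.29 and -0.062.

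**Figure D3:**
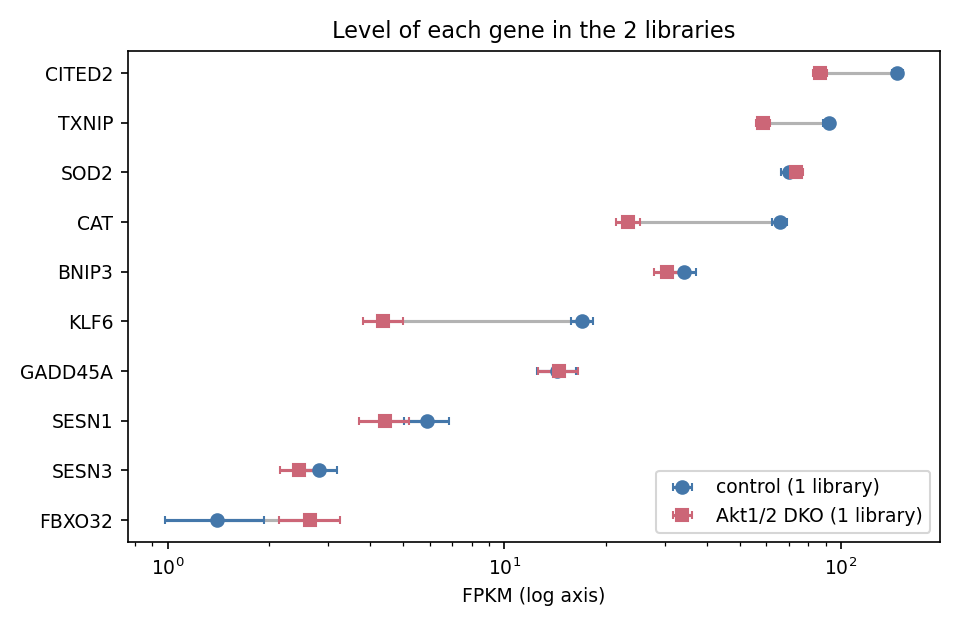
Deposited FPKM of each FOXO target on a log axis in the control library (blue circles) and the Akt1/2 DKO library (red squares), with 95% counting intervals from the reads of that library. KLF6 moves from 16.99 to 4.37 and CAT from 65.72 to 23.3, while the points of SOD2 and GADD45A nearly coincide.

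FPKM corrects for transcript length and so allows levels of different genes to be set side by side. In the control library the order of FPKM was CITED2, TXNIP, SOD2, CAT, BNIP3, KLF6, GADD45A, SESN1, SESN3 and FBXO32, from 146.92 to 1.4. The counting intervals of neighbours overlapped for SOD2 and CAT and for KLF6 and GADD45A, and the other neighbours were separated. In the Akt1/2 DKO library the order was CITED2, SOD2, TXNIP, BNIP3, CAT, GADD45A, SESN1, KLF6, FBXO32 and SESN3, from 86.77 to 2.46, and the intervals overlapped for SESN1 and KLF6 and for FBXO32 and SESN3. CAT thus went from the fourth to the fifth place and KLF6 from the sixth to the eighth. The FPKM of the 10 genes summed to 450.1 in the control and 301 in the Akt1/2 DKO library.

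**Figure D4:**
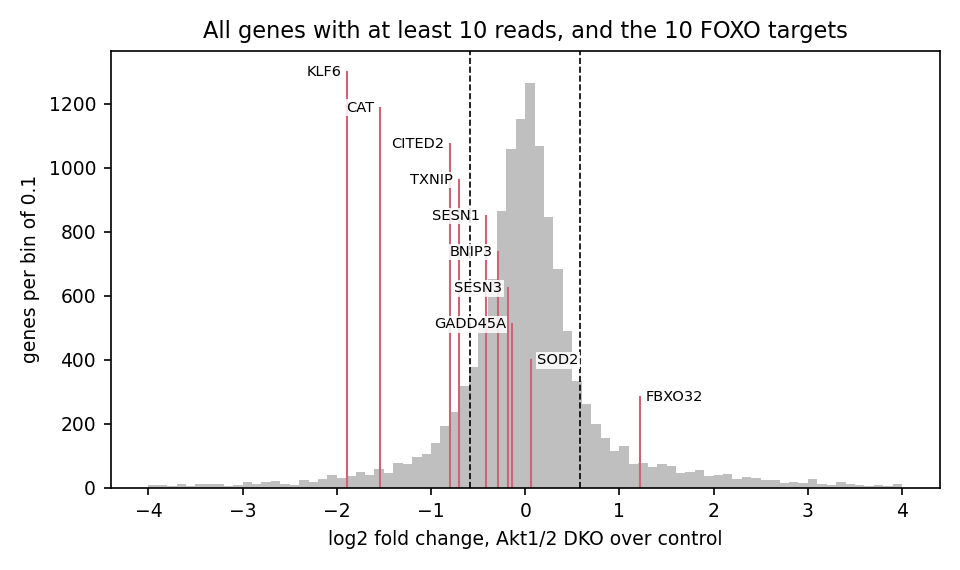
Distribution of log2 fold changes, Akt1/2 DKO over control, of the genes with at least 10 reads in both libraries together (grey, genes per bin of 0.1, with 408 of 13318 genes outside the axis), with the 10 FOXO targets as red lines and 1.5-fold as dashed lines. Red lines stand at 0.066 for SOD2 and 1.22 for FBXO32, and the other 8 lie below 0.

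Genes next to the targets on the chromosome were also described. The median log2 fold change of the chromosomes that carry the targets lay between -0.20 for chromosome 8, which holds FBXO32, and 0.10 for chromosome 1, which holds TXNIP and GADD45A. None of the 10 genes lies on chromosome 3. Among the 10 nearest genes with at least 50 reads (5 on each side), 0 were lower by 1.5-fold around CAT and 0 around TXNIP, and 1 was around CITED2, with median log2 fold changes of -0.059, 0.11 and 0.046. Around KLF6, 4 of the 10 nearest genes were lower by 1.5-fold and 0 were higher, with a median of -0.32, which is smaller in size than the -1.89 of KLF6 itself. Around FBXO32, 1 of 10 was lower and 0 were higher, with a median of -0.072. The neighbours of BNIP3 differed most from it, with 5 of 10 higher by 1.5-fold, 1 lower and a median of 1.36. Of all genes with at least 10 reads, 15% were lower and 15.9% higher by 1.5-fold, and of those with at least 100, 11.9% and 11.3%. The neighbours spanned from 1394119 bases around TXNIP to 5000789 around CITED2, with 4650848 around KLF6 and 4519327 around BNIP3. The part of the surrounding region in the value of KLF6 was not tested.

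The FOXO genes themselves did not share the direction of the lower targets. FOXO1 had 36 control reads and 110 Akt1/2 DKO reads (2.76-fold higher, 95% interval 1.88 to 4.14), FOXO4 had 28 and 65 (2.09-fold higher, 1.33 to 3.39) and FOXO6 had 15 and 32 (1.92-fold higher, 1.01 to 3.82). FOXO3, the most abundant of them at 8.7 and 9.64 FPKM, had 520 and 579 reads, a log2 fold change of 0.0062 (-0.17 to 0.18).

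Of genes known to control FOXO proteins, 26.9% passed 1.5-fold, beside 30.9% of all genes and 23.2% of those with at least 100 reads. Of 26 such genes, all with at least 10 reads and 25 with at least 100, 2 were higher and 5 lower. The median log2 fold change was -0.13. SFN, the 14-3-3 sigma protein, had 9187 control reads and 2759 Akt1/2 DKO reads (3.69-fold lower, 95% interval 3.54 to 3.85), while the other 6 proteins of the 14-3-3 group, which retain phosphorylated FOXO in the cytoplasm, had log2 fold changes between -0.23 for YWHAB and 0.49 for YWHAH. The serum- and glucocorticoid-induced kinases, which phosphorylate FOXO at the same sites as Akt, were unequal. SGK2 had 112 and 7 reads (17.7-fold lower, 8.33 to 45.1), and SGK3 had 16 and 90 (5.07-fold higher, 2.96 to 9.25). SGK1, named after its values were seen because it holds under 100 reads, had 2 and 90, a ratio of 40.6 with an interval from 10.9 to 340.3. INPP4B, a lipid phosphatase that opposes Akt, had 119 and 59 reads (2.24-fold lower, 1.62 to 3.11), and the kinase subunit genes PIK3R1 and PIK3CA had 248 and 174 and 272 and 192 reads (log2 fold changes -0.66 and -0.65), PIK3CA lying on chromosome 3 with its median of -0.54.

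A second list of FOXO-induced genes, outside the 10, was given for comparison. Of its 30 genes 22 had at least 10 reads. By 1.5-fold, 7 of these were higher and 2 lower (40.9%, beside 30.9% of all genes and 23.2% of those with at least 100 reads). Another 13 stayed within it, and the median log2 fold change of the list was 0.36. Its members were chosen with earlier results of these data known, PDK4 among them, so this count is not independent evidence of a direction. PDK4, the kinase that shuts off pyruvate dehydrogenase, had 251 control reads and 6999 Akt1/2 DKO reads (25.2-fold higher, 95% interval 22.2 to 28.6). IRS2, an insulin receptor substrate, had 509 and 2448 (4.34-fold higher, 3.94 to 4.78), and BCL6, a transcriptional repressor on chromosome 3, had 71 and 177 (log2 fold change 1.17, 0.76 to 1.59). CCNG2, a cyclin of quiescent cells, had 92 and 190 reads (1.86-fold higher, 1.44 to 2.42). RBL2, the p130 pocket protein, had 1372 and 812 reads and was 1.87-fold lower (1.72 to 2.05). CDKN1A, the inhibitor p21, was the other lower gene, with 1273 and 911 reads (1.55-fold lower, 1.42 to 1.69). CDKN1B, the cell cycle inhibitor p27, had 1492 and 2536 reads (1.53-fold higher, 1.44 to 1.64), and MXI1, an antagonist of MYC, had 363 and 605 (log2 fold change 0.59). FASLG, PCK1, G6PC and PPARGC1A had no reads in either library. By quantitative PCR, with data not shown, the paper reports no significant change in common FOXO targets, among them p21, p27 and PDK4. It does not name the cells compared, and the values here come from 1 library per condition.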

How the data were processed

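RNA-seq was made of 1 Akt1/2 DKO and 1 control library of CWR22rv1 cells. For each gene the authors deposited an estimated count without normalisation, and an FPKM value, for both libraries. The submitters' processing notes name fastp 0.20.0, TopHat, Cufflinks, edgeR and the build GRCh38.p10; the role of each, the counting annotation and the strand setting are not given in the sources used here. The deposited tables of the authors' own comparison (fold changes, p-values, classes of changed genes) and the correlation between the libraries were not used.

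Each estimated count was rounded to the nearest read, and 13318 genes whose sum over both libraries reached 10 reads were kept. TMM normalisation (edgeR 4.0.16, R 4.3.3) put the effective library size of Akt1/2 DKO at 1.11 times that of the control. A floor of 3 reads is 0.301 CPM in the control and 0.28 CPM in the Akt1/2 DKO library. Fold changes are ratios of normalised reads with exact Clopper-Pearson 95% intervals given the sum of the reads (scipy 1.17.1, Python 3.11.15), and intervals on FPKM are exact Poisson intervals of the reads. With 1 library per condition there is no replicate error and no p-value, and condition and library cannot be told apart. The implied length is reads divided by FPKM and by the total reads of the library.

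The 10 genes and the lists were chosen with earlier results of these data known. In each list, up to 5 genes with the largest change were named among those with at least 100 reads and past 1.5-fold, along with the targeted genes, the FOXO genes and paralogs of the 10; other genes given with values were named after their values were seen. Positions are from GENCODE release 29 (GRCh38), which holds 19571 of the 19607 identifiers. Of the listed symbols, SEPP1 was not matched. Alternatives were total count, DESeq2 1.42.0 and upper-quartile scaling, the FPKM ratio with a pseudocount of 0.1, other read filters, other limits, a prior count of 1, chromosome medians and a shorter promoter window. The steps were tested on simulated data. Some items are not reported here.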

Additional observations from a re-analysis of the deposited data

How the results depend on the processing

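The log2 fold changes of the 10 genes kept their direction under every scaling, the deposited FPKM, a prior count of 1 and centring on the chromosome median, with the exceptions of GADD45A (from -0.24 to 0.018) and SOD2 (from -0.019 to 0.12), whose intervals include 0. TXNIP went to -0.81 when centred on its chromosome, and FBXO32 ranged from 0.87 to 1.42. The 4 lower genes and the 1 higher gene passed 1.5-fold under every scaling and read filter, and with an interval wholly past 1.5-fold. With a 2-fold limit, 2 genes were lower instead of 4, and the genes past the limit in all related lists together went from 60 to 33, because fewer reach it. An interval wholly past 1.5-fold left 35 of them. The 2-fold limit took the count over all genes from 4117 to 2391, and the counts of single lists from 9 to 3 (other FOXO-induced genes), 11 to 7 (paralogs), 4 to 1 (partners), 7 to 4 (peroxide defence), 2 to 0 (atrophy), 5 to 2 (p53) and 11 to 5 (hypoxia). An interval wholly past 1.5-fold took them to 2201 for all genes, 3 of 5 for the list of FOXO and Akt genes, and 5, 2, 0, 3, 5 and 0 for other FOXO-induced genes, partners, atrophy, p53, hypoxia and NF-kB. When 10 reads were required of each library, or a sum of 50, the paralogs had 7 instead of 11 and the NF-kB list 1 instead of 4, and 2 of these 4 have an interval that excludes no change. By FPKM the atrophy list had 4 instead of 2. These are 20 of 100 list counts computed, and the others stayed within 1.5 times. Leaving out SOD2, an alternative chosen after seeing the data, changed neither count. No paired analysis was possible because only 1 library stands for each genotype. Depth limits FBXO32, SESN1, SESN3 and GADD45A, the genes with the fewest reads.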

Other observations

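The remaining 3 lists hold genes induced by other factors that are also known to act on the FOXO targets. Of 20 p53-induced genes, which share the regulator of SESN1 and GADD45A, all had at least 10 reads. By 1.5-fold, 2 of these were higher and 3 lower (25%, beside 30.9% of all genes and 23.2% of those with at least 100 reads). The median log2 fold change was -0.12. PLK3, a stress-responsive polo-like kinase, had 156 control reads and 4081 Akt1/2 DKO reads (23.6-fold higher, 95% interval 20.1 to 27.9). TP53INP1 had 489 and 132 reads (4.11-fold lower, 3.38 to 5.02), ZMAT3, on chromosome 3, had 349 and 194 (1.99-fold lower, 1.67 to 2.39), and CDKN1A, the cell cycle inhibitor p21, had 1273 and 911 (1.55-fold lower, 1.42 to 1.69). The second higher gene, TP53I3, named after its values were seen, had 9 and 17 reads. Its log2 fold change of 0.77 had an interval from -0.48 to 2.12, which includes 0.

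Of 20 hypoxia-induced genes, which share the regulator of BNIP3 and CITED2, 18 had at least 10 reads. By 1.5-fold, 5 of these were higher and 6 lower (61.1%, beside 30.9% of all genes and 23.2% of those with at least 100 reads). The median log2 fold change was 0.076. HK2, a hexokinase, had 953 and 2227 reads (2.11-fold higher, 95% interval 1.95 to 2.28) and STC2 had 317 and 744 (2.12-fold higher, 1.85 to 2.42). NDRG1 had 390 and 176 reads (2.46-fold lower, 2.05 to 2.95), CA12 had 941 and 529 (1.97-fold lower, 1.77 to 2.20) and P4HA1 had 364 and 230 (1.75-fold lower, 1.48 to 2.08). The other higher genes, named after their values were seen, were EGLN1 (373 and 637 reads), INSIG2 (32 and 67) and LOX (5 and 31). The other lower genes, named in the same way, were EGLN3 (155 and 111 reads), ADM (44 and 22) and BNIP3L (484 and 357). Of 13 NF-kB-induced genes, which share a regulator of SOD2, 9 had at least 10 reads. Of these, 2 were higher and 2 lower (44.4%, beside 30.9% of all genes), with a median of 0.054. All 4 hold under 100 reads and are named after their values were seen: TNFAIP3 with 6 and 17, BIRC3 with 2 and 11, ICAM1 with 21 and 9, and IER3 with 38 and 25. NFKBIA, the inhibitor of NF-kB, had 557 and 629 reads, a log2 fold change of 0.027.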
